A study of Mus musculus with 4 samples.

Results

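The Myc, Max and Mxd network was followed at the RNA level in adult mouse neural stem cells. Its members were chosen by gene symbol: 3 activators (Myc, Mycn and Mycl), their shared partner Max, and 6 antagonists (Mxd1, Mxd3, Mxd4, Mxi1, Mnt and Mga). All 10 were found among the 32564 genes that the deposited transcripts map to, and all 10 were among the 19914 genes with a count in any library.

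The study measured RNA in 4 libraries, which the labels place in 1 group. These were untreated cells from gfap:GFP transgenic mice, in which a reporter marks cells that use the Gfap promoter, on a CD1/C57BL/6 mixed background at 3 months old. The cells were sorted as Prom1+, EGFR+ and GFAP+ and are called activated EGFR+ cells in the labels. The series' design text instead speaks of quiescent cells after aCSF or miR204 antagomers, but no label assigns either to a library, so no groups were compared. Nothing in the labels says whether animals were pooled or whether the libraries came from separate animals, so each SD and p-value covers the spread between these 4 libraries only, which may be technical.

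Myc proteins are bHLH-zip transcription factors that bind DNA only as dimers with Max. These dimers sit on the E-box CACGTG and raise transcription of genes for growth, ribosome assembly and division, and Mycn is known as a driver of neural progenitor proliferation in the developing brain. Mxd proteins, Mxi1, Mnt and Mga also dimerize with Max and bind the same sites, where Mxd proteins, Mxi1 and Mnt recruit the Sin3 corepressor and histone deacetylases. Activators and antagonists thus share a partner and a binding site, so their relative amounts are a common way to describe the network.

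The libraries held 16978938 to 23727664 estimated counts. All 10 listed neural stem core genes, the sorting markers Gfap, Prom1 and Egfr among them, were above 1 TPM, and so were all 10 listed genes of activated stem cells or progenitors (limma on log2(TPM + 1), adjusted p under 0.05, n = 4). TPM values are corrected for transcript length and for the library's total. Markers of other cells were present too, and most of their sums differed between libraries. Their summed levels ran from 732 to 2351 TPM over 8 oligodendrocyte genes, all above 1 TPM and lowest in library 1, from 189 to 582 TPM over 10 microglia genes, all above 1 TPM, and from 601 to 1211 TPM over 8 ependymal genes, all above 1 TPM. The sum of 5 erythroid genes, 4 of them above 1 TPM, was 59.9 TPM in library 1 and 2342 TPM in library 4. The sum of 8 mature neuron genes, 7 of them above 1 TPM, was steadier at 1066 to 1312 TPM. Of 7 measured neuroblast genes 6 were above 1 TPM with a sum of 218 to 391 TPM, and of 6 oligodendrocyte precursor genes 5 were, with a sum of 171 to 238 TPM. The sum of 12 immediate early genes, all above 1 TPM, ran from 4220 TPM in library 4 to 9717 TPM in library 3. Of 8 endothelial or mural genes 2 were above 1 TPM, and Cdh5 and Kcnj8 were at 0 in every library. In bulk RNA of this kind, fewer cells of a type and less RNA per cell cannot be told apart, and the part of other cells in the levels below was not tested.

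The sequences that bear on the network are its binding site and the pieces that separate its transcripts. RefSeq promoters (GRCm38.p6, 250 bases before to 50 after each start) were matched for 9 members, all but Myc. The E-box CACGTG, which reads the same on both strands, was in the promoters of 3 of them, Max, Mnt and Mxd4, in those of 8.09% of the 27025 genes in the promoter table, and in those of 10.7% of the 13047 tested genes with a promoter. It lay at -3 from the RefSeq start in Max, at -123 in Mnt and at -219 in Mxd4. In the GENCODE M21 annotation the Max transcripts start further downstream, Max-201 at 76962201 and Max-202 at 76962185. The measured Max-202 is 2005 bases long against 1942 in that annotation, so its start may differ from the annotated one. The windows are shown with the E-box in capitals, since they are the places where members of the network carry the network's own recognition letters. A match is a description of letters and not a bound site.
Max, chr12:76962221-76962276, minus strand: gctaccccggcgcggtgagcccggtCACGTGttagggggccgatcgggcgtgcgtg
Mnt, chr11:74830776-74830831, plus strand: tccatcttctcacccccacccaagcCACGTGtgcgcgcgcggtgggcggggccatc
Mxd4, chr5:34187899-34187954, minus strand: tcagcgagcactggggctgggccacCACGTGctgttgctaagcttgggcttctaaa

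Among the activators, Mycn RNA stood highest. Mycn (chromosome 12, 12936093 to 12941914, mm10) was at 65.3, 78.1, 89.9 and 108 TPM in libraries 1 to 4, a mean of 85.4 ± 18.3 TPM (SD, n = 4). It was the highest member in 3 libraries, and 90.6% of the genes tested had a lower mean. Mycl (chromosome 4, 122995652 to 123002485), the paralog first found in small cell lung cancer, was at 24.2, 20.7, 35.1 and 11.2 TPM, a mean of 22.8 ± 9.89 TPM. It was highest in library 3 and lowest in library 4, where Mycn had its highest value. Myc itself (chromosome 15, 61985391 to 61990374), which many growth signals induce within minutes, was at 12.6, 11.7, 32.5 and 19.7 TPM, a mean of 19.2 ± 9.61 TPM. Library 3, with the highest Myc level, also had the highest summed level of immediate early genes, and library 2 had the second highest sum with the lowest Myc level. The part of this in the Myc level was not tested.

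Within libraries Mycn exceeded Myc by a TPM ratio of 5.17, 6.66, 2.76 and 5.49, so in 4 of 4 libraries, and the ranges of the paralogs did not overlap. Mycl and Myc were not separated: their TPM ratio was 1.91, 1.76, 1.08 and 0.566, with Mycl higher in 3 of 4 libraries (mean log2 difference 0.25 ± 0.76, SD, n = 4). Mycn held 57.0 to 77.8% of the summed activator level, with its largest share in library 4.

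**Figure D1:**
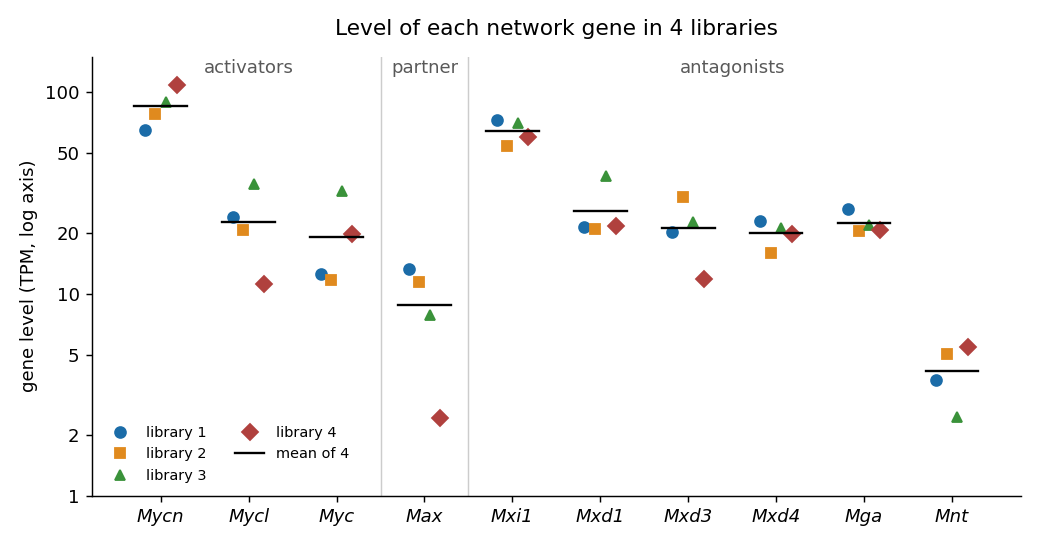
Level of each of the 10 network genes in TPM (log axis), with 1 point per library and a bar at the mean of 4 libraries, grouped by role. Mycn (65.3 to 108 TPM) and Mxi1 (54.0 to 72.5 TPM) lie above the other members, and Max (2.44 to 13.3 TPM) has the widest range.

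Max (chromosome 12, 76937269 to 76962201), without which neither activators nor Mxd proteins bind DNA, was among the lowest members and varied most. Its level was 13.3, 11.5, 7.85 and 2.44 TPM in libraries 1 to 4, a mean of 8.77 ± 4.79 TPM (SD, n = 4). The highest value was 5.45 times the lowest. The counts behind these values were 379, 306, 158 and 71. The exact 95% Poisson interval was 1.90 to 3.07 TPM in library 4 and 6.68 to 9.18 TPM in library 3. It treats each read as a separate molecule, so it is too narrow for amplified cDNA. Library 4 also had the highest erythroid sum and the lowest neuroblast sum, and the neuroblast sum fell over the libraries in the same order as Max (391, 283, 272 and 218 TPM). Of the genes in that sum, Cd24a and Stmn2 kept this order, and Tubb3, Nrxn3, Dcx, Sox11 and Plk5 did not. The part of erythroid cells or neuroblasts in the Max level was not tested. The deposited files hold 2 of the 7 Max transcripts in the GENCODE M21 annotation, so these levels are those of Max-201 and Max-202 alone.

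The antagonists were led by Mxi1. Mxi1 (chromosome 19, 53310518 to 53375810), known to oppose Myc in differentiating cells, was at 72.5, 54.0, 70.4 and 60.2 TPM, a mean of 64.3 ± 8.72 TPM (SD, n = 4). It was above every other antagonist in all 4 libraries and held 36.8 to 43.3% of their summed level. Mxi1 exceeded the next member in the order, Mxd1, by a mean of 1.33 ± 0.36 on the log2 scale, and their ranges did not overlap.

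The 3 Mxd genes stood close together. Mxd1 (chromosome 6, 86647042 to 86669161), known for its rise when cells leave the cycle, was at 21.4, 20.9, 38.5 and 21.8 TPM, with library 3 well above the other 3, which lay within 1 TPM of each other. Without library 3 its mean was 21.4 TPM in place of 25.7 TPM. Mxd3 (chromosome 13, 55325168 to 55329823), the member of its family known from dividing cells in S phase, was at 20.2, 30.4, 22.8 and 11.8 TPM, highest in library 2 and lowest in library 4. Mxd4 (chromosome 5, 34173883 to 34187720) was steadier, at 23.1, 15.9, 21.2 and 19.9 TPM.

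Mga and Mnt are the 2 large antagonists. Mga (chromosome 2, 119897228 to 119969581), a scaffold that carries a T-box as well as a bHLH-zip domain and belongs to the PRC1.6 complex, was at 26.5, 20.6, 22.0 and 20.8 TPM, the smallest spread of all members (SD 0.16 on the log2(TPM + 1) scale). Mnt (chromosome 11, 74830920 to 74845725), the antagonist held to be the most widely expressed, was the lowest member by mean, at 3.73, 5.02, 2.47 and 5.43 TPM. Mnt was below Max in libraries 1 to 3 and above it in library 4.

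In the order of mean levels, Mycn and Mxi1 were followed by Mxd1, Mycl, Mga, Mxd3, Mxd4, Myc, Max and Mnt. The step from Mxi1 to Mxd1 was the only step between neighbours whose ranges did not overlap. Mycn was above Mxi1 in 3 of 4 libraries (mean log2 difference 0.39 ± 0.41, SD, n = 4), and the genes from Mxd1 to Myc differed from their neighbours by less than the spread between libraries. All 10 members were above 1 TPM (limma on log2(TPM + 1), adjusted p of 0.0026 or less for each), as were 62.8% of all genes tested. The median member had a mean of 21.9 TPM against 8.34 TPM over all genes tested.

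Members differed in how much they varied. The SD of log2(TPM + 1) was 0.93 for Max, 0.65 for both Mycl and Myc and 0.54 for Mxd3, and 80.8 to 95.4% of the 14087 genes of at least 1 TPM varied less than these 4. It was 0.20 for Mxi1 and 0.16 for Mga, below that of most genes. The median over members was 0.41, and over those 14087 genes 0.30, with 7 of 10 members above the latter. Depth differs between genes, and 71 counts for Max against 5574 for Mxi1 in the extremes leave Max more exposed to counting error.

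The summed RNA of the activators did not exceed that of the antagonists in any library. The activators summed to 102, 110, 158 and 139 TPM in libraries 1 to 4 and the antagonists to 168, 147, 177 and 140 TPM. The antagonists thus stood 1.64, 1.33, 1.13 and 1.01 times as high, and in library 4 the sums were nearly equal. The mean of log2 activators over antagonists was -0.33 ± 0.31 (SD, n = 4). No test was made, since the genes summed were chosen with earlier results known.

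That small excess depended on which transcripts and genes were counted. With protein-coding transcripts only, the mean was -0.06 ± 0.31 and the activators were higher in 2 of 4 libraries. With the most abundant transcript of each gene only, it was -0.22 ± 0.38 and the activators were higher in 2 of 4 libraries. With Mxd1, Mxd3, Mxd4 and Mxi1 as the only antagonists it was -0.06 ± 0.30, again with 2 of 4 libraries on each side. As a mean of log2(TPM + 1) per gene, which gives each gene equal weight, the activators stood higher by 0.64 ± 0.34 in 4 of 4 libraries. Without length correction it was -0.95.

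**Figure D2:**
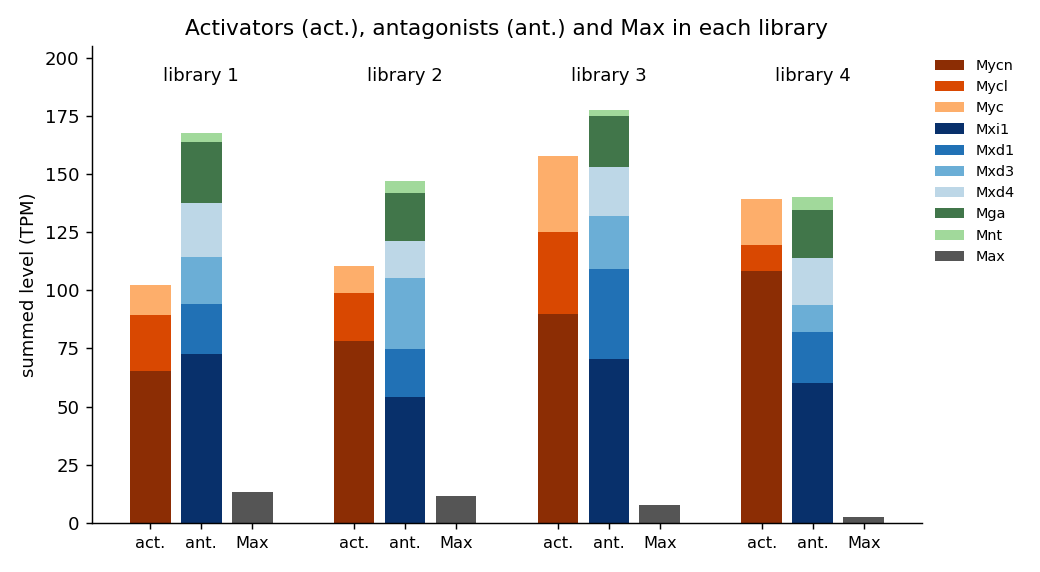
Summed TPM of the activators (act.), the antagonists (ant.) and Max in each library, stacked by gene. Antagonist bars reach 140 to 177 TPM and activator bars 102 to 158 TPM, with Mycn and Mxi1 as the largest blocks and Max at 2.44 to 13.3 TPM.

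Relative to Max, the summed RNA of its 9 partners was in excess. This sets a sum over 9 genes against a single gene whose mean, 8.77 TPM, lay near the 8.34 TPM median of all genes tested. The sum also counts non-coding entries, such as those of Mga and Mxd1, and Max is counted by 2 of its 7 annotated transcripts. The 9 partners together held 20.3, 22.4, 42.7 and 115 times the Max TPM in libraries 1 to 4. The mean of that ratio was 49.96, and 28.4 without library 4. Mycn was 4.91, 6.78, 11.4 and 44.4 times Max, and Mxi1 was 5.46, 4.69, 8.97 and 24.7 times Max. In each case library 4, with 71 Max counts, gave the highest ratio. Of the 9 partners 7 were above Max in 4 of 4 libraries, Myc in 3 of 4 (TPM ratios 0.9502, 1.02, 4.14 and 8.09) and Mnt in 1 of 4.

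A fit of the ratio to Max over all genes called 7 members above Max and none below, with Myc and Mnt called in neither direction (limma, adjusted p 0.077 and 0.24). At an unadjusted p under 0.05 none was below either. By the same test 35% of all genes were above Max and 38% below. Mycn was higher by 3.31 ± 1.22 and Mxi1 by 2.92 ± 0.91 on the log2(TPM + 1) scale (SD, n = 4). All these ratios share the spread of Max, and the fit pooled the variance of all genes completely, so its p-values are too small. The exact sign-flip test over 4 libraries gave p = 0.125 for each of the 7, the smallest p it can give. The calls of Mycl, Mxd1, Mxd3, Mxd4 and Mga were each lost in at least 1 setting, whereas those of Mycn and Mxi1 held in every setting run. Without library 3 only these 2 were called, and 3 members were called without library 2 or with protein-coding transcripts only. Without library 4 Mnt was called below Max (log2 difference -1.33).

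Relative to Myc, the same kind of fit called Mycn and Mxi1 higher (mean log2 difference 2.19 ± 0.52 and 1.80 ± 0.59, SD, n = 4) and Mnt and Max lower (-1.89 ± 0.96 and -1.12 ± 1.34). By this test 25.7% of all genes were above Myc and 52.1% below. The limits just given for the fit hold here too. Max against Myc is the same difference as Myc against Max above, which was not called there (limma adjusted p = 0.077 there and 0.013 here), and the exact sign-flip test over 4 libraries gave p = 0.375 for it. Max was below Myc in 3 of 4 libraries, and the call in this direction was lost without library 4 (-0.63). Mycl, Mxd1, Mxd3, Mxd4 and Mga were called in neither direction.

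**Figure D3:**
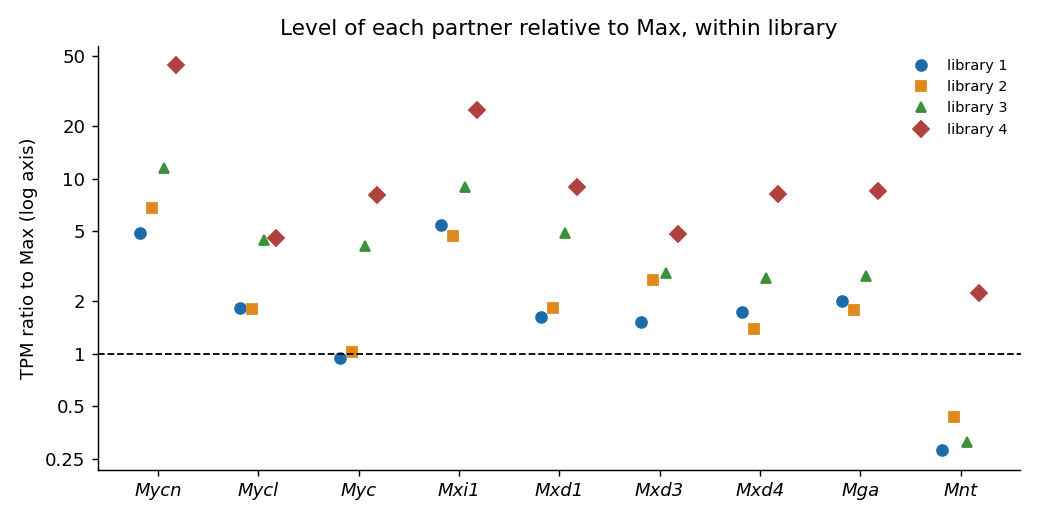
TPM of each partner divided by that of Max in the same library (log axis), 1 point per library, with a dashed line at equal levels. Library 4 gives the highest ratio for each of the 9 partners, and Mnt lies below the line in 3 of 4 libraries.

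The transcripts of Max differ by a small coding exon. Max-202 holds exon 2 of 27 bases (chr12:76961263-76961289, minus strand), which Max-201 lacks, so the annotated proteins have 160 and 151 codons. The exon is printed in capitals between 10 bases of its neighbours, from the GENCODE M21 transcript.
Max-202 exon 2: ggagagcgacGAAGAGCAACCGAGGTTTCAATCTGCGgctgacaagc
Max-202 held 24.8, 41.6, 59.0 and 0% of the Max TPM in libraries 1 to 4. Its share thus ran from none of the reads assigned in library 4 to more than that of Max-201 in library 3. Library 4 rests on 71 counts for the gene, and reads shared by both transcripts were divided between them by estimate.

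Mxi1 RNA came in near-equal parts from annotated starts 18940 bases apart. Mxi1-201, which starts at 53310518 and codes for 295 residues, held 56.1, 52.9, 55.0 and 57.0% of the gene's TPM. Mxi1-202, which starts at 53329458 and codes for 192 residues, held 41.5, 45.8, 44.5 and 43.0%. The SD of these shares (1.78 and 1.88%, n = 4) was below that of the main coding transcripts of Max, Mycn, Mycl and Mxd4 but above that of Mga-201 (0.28%), and the Mxi1-201 share was higher in 4 of 4 libraries. The files hold 3 of 9 annotated Mxi1 transcripts. Whether proteins of both lengths recruit Sin3 was not tested, and the sums above count both as antagonist. The RefSeq promoter sequence before each start is shown from 100 bases before it, with the first 5 transcribed bases in capitals, because these separate starts are what this finding turns on.
Mxi1-201, chr19:53310418-53310522, plus strand: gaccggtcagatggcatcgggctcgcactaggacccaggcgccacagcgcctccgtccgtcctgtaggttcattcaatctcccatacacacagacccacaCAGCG
Mxi1-202, chr19:53329358-53329462, plus strand: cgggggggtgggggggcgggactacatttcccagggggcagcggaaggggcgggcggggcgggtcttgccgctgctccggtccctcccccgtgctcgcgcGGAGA
Neither stretch holds the letters CACGTG.

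Of the activators, Mycn and Mycl showed little coding variety. Mycn-201 held 69.0 ± 8.90% and Mycn-202 29.8 ± 8.63% of Mycn TPM (SD, n = 4), and both code for the same number of residues, 462. Library 2 stood apart, with 55.8% for Mycn-201 against 71.9 to 74.3% in the others. Mycl-201 and Mycl-202, each coding for 368 residues, held 70.0 ± 2.77% and 28.4 ± 2.36% of Mycl. Myc was spread over 8 coding transcripts, 5 of them at 10% or more on average. Their shares differed widely between libraries, from 0.113 to 30.9% for Myc-206 and from 0 to 40.1% for Myc-202. Myc-201 and Myc-205 have the same sequence and were given the same value in each library, so they are 1 RNA with annotated coding parts of 454 and 439 codons. With only the most abundant transcript counted, the call of Myc above 1 TPM was lost (log2 difference 0.91). For Myc that setting took Myc-206 (mean 4.13 TPM). It treated Myc-201 and Myc-205 as separate entries of 3.46 TPM each, so the most abundant Myc RNA was not the one counted.

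For some antagonists a part of the TPM lay in transcripts not annotated as protein-coding. In Mga, protein-coding transcripts held 34.3 ± 4.70% of TPM (SD, n = 4), because short non-coding entries such as Mga-209 (18.7%) weigh heavily per base, but they held 79.4% of the estimated counts. The long coding transcript Mga-201 of 3003 codons held 16.7% of TPM and 47.2% of counts. The protein-coding entry Mga-215 held 15.2% of TPM, but its annotated coding part of 6886 bases is not a whole number of codons. With protein-coding transcripts only, Mga was at 7.78 TPM and was called below Myc (log2 difference -1.11, limma adjusted p = 0.012), in place of no call, and its call above Max was lost (log2 difference 0.0066). In Mxd1 the retained-intron transcript Mxd1-204 held 25.8 to 43.9% of TPM, and the coding Mxd1-201 the greater part in 4 of 4 libraries. With protein-coding transcripts only, Mxd1 was at 15.5 TPM and its call above Max was lost (log2 difference 0.91). Mxd4-201 and the shorter Mxd4-202 held 59.1 ± 16.3% and 35.3 ± 15.6%, with Mxd4-202 at 12.1% in library 2 against 40.5 to 44.7% in the others. Mxd3-201 held 88.4 ± 5.19% of Mxd3, and Mnt-201 all of Mnt.

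**Figure D4:**
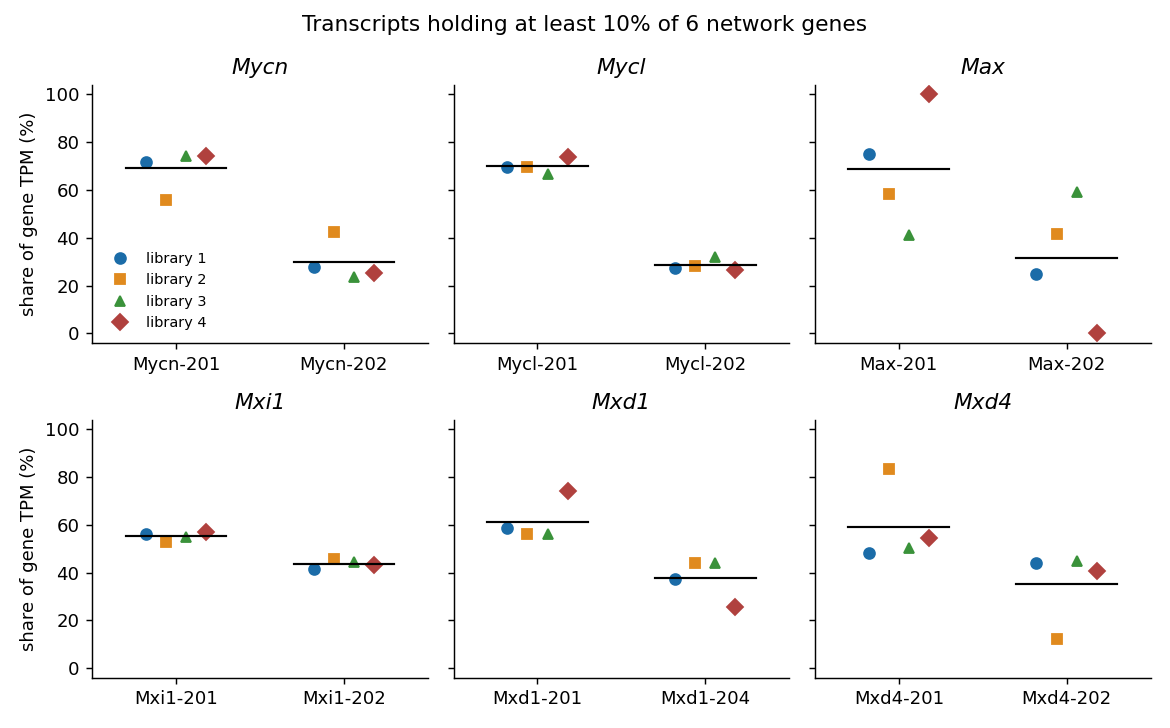
Share of the gene's TPM held by each transcript with at least 10% on average, for 6 network genes, with 1 point per library and a bar at the mean. The Mxi1 shares stay within 52.9 to 57.0% and 41.5 to 45.8%, whereas Max-202 ranges from 0 to 59.0%.

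Around the network, 9 lists of partners, regulators and targets with 96 genes were read. Of these 95 were above 1 TPM, none was below and 1 was called neither way (limma, threshold 0.05 on the adjusted p), against 62.8% above and 23.2% below among all genes. No gene of these lists was below 1 TPM at an unadjusted p under 0.05 either, and edgeR also called none below.

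The extended network, in which Mlx takes the place of Max, was present with all 3 members. Mlx was at 33.9, 29.2, 43.5 and 35.5 TPM, above Max in each library. Its glucose-sensing partners Mlxipl (ChREBP) and Mlxip (MondoA) had means of 13.9 ± 6.58 and 11.6 ± 4.498 TPM (SD, n = 4), each highest in library 3. With protein-coding transcripts only, Mlxipl stood 0.76 above 1 TPM on the log2(TPM + 1) scale in place of 2.80, and Mlx 3.10 in place of 4.18. Promoters of 2 of these 3 genes, Mlx and Mlxipl, held CACGTG.

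All 15 listed coactivators of Myc were above 1 TPM, from the SWI/SNF subunit Smarcb1 (150 ± 27.3 TPM) and the helicase Ruvbl2 (89.5 ± 11.3 TPM) down to the acetyltransferase Kat5 (21.9 ± 2.501 TPM) and Hcfc1 (20.9 ± 3.36 TPM). The 15 genes of the Sin3 corepressor complex, which Mxd proteins recruit, were all above it with a median of 61.7 TPM. The histone-binding Rbbp7 (250 ± 22.0 TPM) and Rbbp4 (184 ± 16.1 TPM) and the corepressor Ncor1 (158 ± 23.0 TPM) led that list, and the scaffold Sin3a (20.1 ± 3.23 TPM) and Ing2 (17.7 ± 1.72 TPM) were lowest. All 9 partners of Mga in PRC1.6 were above it, led by Tfdp1 (97.1 ± 10.8 TPM), Yaf2 (95.8 ± 7.21 TPM) and Cbx3 (67.5 ± 14.4 TPM). Pcgf6, the subunit that defines this complex, was at 12.8 ± 3.58 TPM and Rybp at 9.75 ± 2.31 TPM. Rybp was no longer called when its most abundant transcript alone was counted (log2 difference 1.26, limma adjusted p = 0.086). All 12 regulators of Myc protein turnover were above it, with the ubiquitin ligase Stub1 (159 ± 7.38 TPM), the kinases Gsk3b (69.2 ± 11.2 TPM) and Plk1 (61.7 ± 15.9 TPM) highest and the deubiquitinases Usp36 (13.9 ± 3.41 TPM) and Usp28 (13.2 ± 4.43 TPM) lowest.

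Genes known as Myc targets were above 1 TPM for 33 of 34 members. In ribosome biogenesis all 12 were, led by the nucleolar proteins Npm1 (210 ± 13.6 TPM), Nop56 (199 ± 34.6 TPM) and Ncl (142 ± 9.97 TPM), with Nolc1 (34.3 ± 8.70 TPM) and the polymerase I subunit Polr1b (10.1 ± 3.84 TPM) lowest. With protein-coding transcripts only, Ncl stood 3.54 above 1 TPM on the log2(TPM + 1) scale in place of 6.16, and Nop56 5.76 in place of 6.63, so much of their TPM lay in entries not annotated as protein-coding. In metabolism and growth 13 of 14 were, led by Ptma (1438 ± 90.3 TPM), the glycolytic Pkm (640 ± 51.9 TPM) and the chaperonin Hspd1 (187 ± 11.99 TPM), with the purine enzyme Ppat at 16.9 ± 3.30 TPM. The telomerase gene Tert passed in neither direction, at 1.51, 1.12, 0.613 and 0.019 TPM. In the cell cycle all 8 were, with Ccnd2 (1488 ± 60.4 TPM), Cdk4 (640 ± 30.8 TPM) and Cks2 (111 ± 20.5 TPM) highest, and Cdc25a (20.4 ± 2.88 TPM) and E2f2 (6.02 ± 0.818 TPM) lowest. All 8 genes listed as repressed by Myc were above 1 TPM as well, led by Ndrg2 (1713 ± 254 TPM), an abundant astrocyte gene, then Cdkn1a (49.4 ± 10.1 TPM) and Gas1 (47.9 ± 7.68 TPM). Gadd45a (22.2 ± 7.67 TPM) and Cdkn2b (3.10 ± 1.57 TPM) were lowest, and Cdkn2b was no longer called without library 1 (log2 difference 0.78) or library 4 (0.79). These levels come from 1 group, so they do not measure whether Myc drives or represses any gene. Of the 34 Myc targets 26 had a promoter in the table, and 6 of these held CACGTG, 23.1% against 10.7% of the 13047 tested genes with a promoter.

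**Figure D5:**
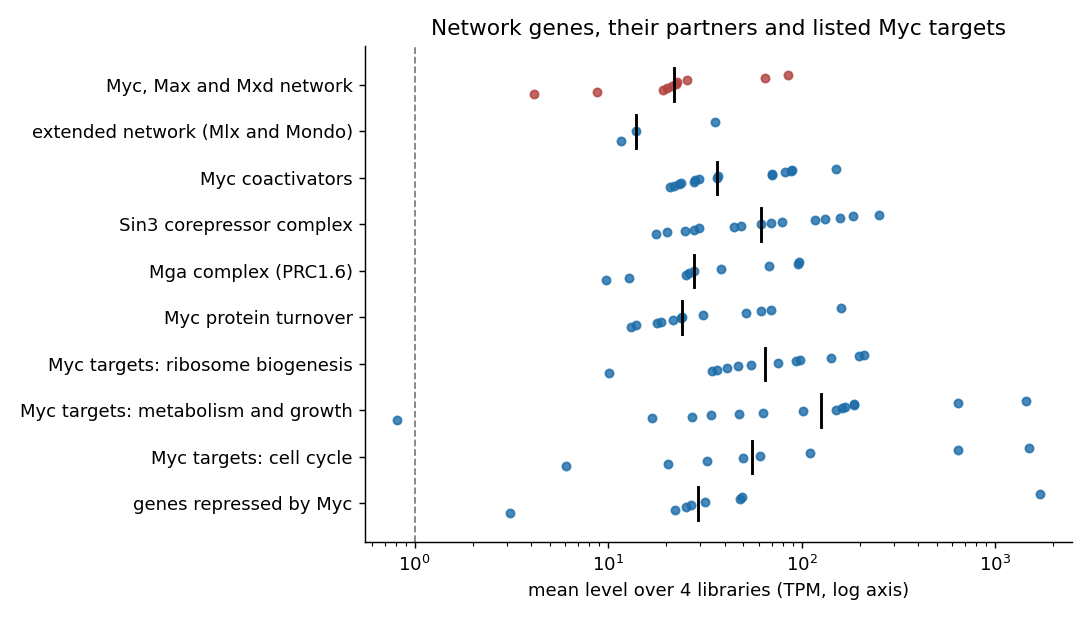
Mean TPM over 4 libraries (log axis) of each gene in the network, its partner and regulator lists and the target lists, with a black bar at each list's median and a dashed line at 1 TPM. The network's median is 21.9 TPM, below the 61.7 TPM of the Sin3 complex, and Tert is the point left of the dashed line.

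The genes whose levels moved most like Myc over the 4 libraries, out of 9216 coding genes of at least 10 TPM, were Mid1, Mettl11b and Plk3 (Euclidean distance 0.11, 0.16 and 0.16 of centred log2 values). Mid1 was at 13.1, 13.6, 34.7 and 21.5 TPM, high in library 3 as Myc was. For Mycn they were Mpi, D17Wsu92e and Chd1l (distance 0.043, 0.044 and 0.054), and Mpi was at 25.02, 30.2, 34.6 and 43.4 TPM. Such likeness rests on 4 values per gene and is given as a description only.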

How the data were processed

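RNA was sequenced in 4 libraries; per the labels' protocols, low-input SMART-Seq v4 cDNA was read as 100 bp pairs. Per the submitters' processing notes the authors used kallisto and sleuth with mm10; their versions were not given in the sources used here, nor was the transcript release. Per transcript, the deposited values are an estimated count and a TPM value; kallisto divides shared reads by estimate. TPM was summed per gene with GENCODE M21 (GRCm38, the assembly of mm10): 98294 of 99567 transcripts matched by identifier without version, and the other 1273, with 0.530 to 0.619% of counts, were left out. PCR-amplified reads without molecular identifiers are not independent molecules, so intervals cover counting error only.

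Each gene with a count was tested against 1 TPM, and as a log2 ratio to Max or Myc, with limma (mean-variance trend, two-sided, Benjamini-Hochberg over all genes, pseudocount 1). The level test was run on simulated data. For the ratio to Max, simulated data were used only to compare estimated with true ratios, not to check its p-values. The ratio fits had an infinite prior. Named were all members, transcripts of at least 10% mean share, all genes of lists of up to 5 and the 3 highest and 2 lowest of longer lists, and the 3 most alike genes of Myc and Mycn. The values of 1 gene under this rule are not reported here. Members, lists and tests were chosen with earlier results of these data known. The settings varied were the pseudocount (0.1), a filter at a mean of 5 estimated counts, the level (5 TPM), 3 other scalings (nuclear protein-coding genes, TMM, DESeq2 size factors), edgeR's quasi-likelihood test on rounded counts, CPM, other transcript sets, and each library left out. Tools were R 4.3.3, limma 3.58.1, edgeR 4.0.16, DESeq2 1.42.0 and Python 3.11.15.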

Additional observations from a re-analysis of the deposited data

Results flagged for a closer look

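Of 98 sets of 4 values tested, 12 had a library far from the other 3 by Dixon's gap over range at its 95% critical value. Chance gives about 1 in 20 where sets are independent and values normally distributed. Ratios to Max share its level and shares of 1 gene depend on each other, so 12 of 98 cannot be judged against that rate. Library 4 gave the value that stood apart for the TPM ratio to Max of Mycn (44.4), Mnt (2.23) and Mga (8.55), which share its low Max level, and for the Mxd1-201 share of Mxd1 (74.2%). Library 3 did so for the TPM of Mxd1 (38.5), of the Mlx partner Mlxip (18.3) and of Tfdp1 (113). Library 2 did so for Mycn-201 (55.8%), Mxd4-202 (12.1%) and Mga-209 (10.8%) as shares of their genes. Library 1 did so for the Myc-202 share of Myc (40.1%) and for the TPM of Usp36 (8.85).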

How the results depend on the processing

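All 10 members stayed above 1 TPM under every setting except that Myc (most abundant transcript only), Max (level of 5 TPM) and Mnt (level of 5 TPM, log2 difference -0.26) were not called. Myc over Max turned to -0.66 and Mga over Max to -0.22 with the most abundant transcript, and Mnt over Max to 0.33 without length correction. In all results with the most abundant transcript, Myc was counted by Myc-206 alone. The RNA shared by Myc-201 and Myc-205 was split between them and passed over. Relative to Myc, Max turned to 0.66 and Mnt to 0.42 with the most abundant transcript, Mxd1 to -0.21 and Mga to -1.11 with protein-coding transcripts, Mxd3 to -0.32 without length correction and -0.18 without library 2 (range -0.18 to 0.48 with a library left out), and Mxd4 to -0.057 without library 1 (range -0.057 to 0.42). Tert turned to 0.31 without length correction and 0.033 without library 4 (range -0.40 to 0.033), and Cdkn2b to -0.63 at 5 TPM. The members called above Max were 3 with protein-coding transcripts and 2 to 7 with a library left out, and those below Max 0 to 1. Those above Myc were 5 without length correction or with the most abundant transcript, and those below Myc 1 and 0 under these settings and 1 to 2 with a library left out. Of the partner and target genes 1 was below 5 TPM. The genes below 1 TPM were 949 with at least 5 estimated counts, 2773 with protein-coding transcripts, 7528 at 5 TPM and 1722 with edgeR. With at least 5 counts 3511 genes were below Max and 6332 below Myc, and with the most abundant transcript 0 were below Myc. Of 53 levels of members and other genes, 13 were lower by over 1.5 times with protein-coding transcripts and 25 with the most abundant transcript, and without length correction 4 were lower and 23 higher by that much. Activators over antagonists was -0.95 without length correction, 0.64 as a mean of logs, and -0.43 to -0.20 with a library left out. The cause of these changes was not tested. A stricter minimum by its definition leaves fewer genes, 15857 in place of 19914 for the level test. Depth limits Max most, with 71 counts in library 4. No paired analysis was possible because the labels give 1 group.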
